A study of Homo sapiens with 12 samples.

Results

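Metallothioneins are small, cysteine-rich proteins that bind zinc, copper and cadmium through their sulfur atoms. The genes described here are MT1E, MT1F, MT1G, MT1H, MT1M, MT1X, MT2A and MT3, together with MTF1, the zinc-sensing transcription factor that drives metallothionein genes. They were followed on single arrays of 22Rv1 cells exposed for 4 h, 6 h or 16 h to a small molecule described as an inhibitor of ONECUT2, and of vehicle-treated 22Rv1 cells. The members were every probe set that the platform annotation assigns to these 9 symbols alone, 15 of the 54675 probe sets on the array and 9 of its 19775 named genes. The genes were chosen by family, with earlier results of these arrays known, so they count as selected on the 16 h against vehicle signals, which were lower for metallothioneins in those results. The 16 h values of all members, MTF1 included, are therefore given as a description, with no test of their own.

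The series holds 12 Affymetrix U133 Plus 2.0 arrays, with 3 arrays in each of the 4 groups. 22Rv1 is an established human prostate carcinoma cell line that expresses the androgen receptor, and all groups were unmodified cells of this 1 line grown in the same serum-supplemented medium. ONECUT2 is a homeodomain transcription factor. The labels give no treatment time for vehicle, and the 16 h titles lack 1 code element that the other 9 titles carry, so compound, time and whatever that element stands for cannot be told apart in comparisons with 16 h. The labels do not say that the 3 arrays of a group came from separate cultures. A p-value here thus reflects the spread among the arrays alone, and that spread may be technical.

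When free zinc rises in a cell, MTF1 enters the nucleus and binds short metal response elements upstream of the MT1 and MT2A genes. The newly made metallothionein protein then binds zinc, and MTF1 also drives SLC30A1, which moves zinc out across the plasma membrane. Glucocorticoids, oxidants and cadmium are other known inducers of MT2A or of several MT1 genes, and prostate epithelium is known for its high zinc content. The MT1 genes and MT2A arose by duplication and lie side by side on chromosome 16, so their transcripts are nearly identical over long stretches. MT3 belongs to the same cluster and is known mainly from brain.

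The upstream sequences of members whose signals moved together are shown because they carry the elements through which MTF1 acts. RefSeq promoters (GRCh38.p14) were at hand for 4 of the 9 genes, namely MT2A, MT1H, MT1X and MTF1. The motifs searched were TGCACNC and TGCGCNC, the core letters of the metal response element, on both strands, and no matches overlapped in the sequences shown. The 250 bases before each annotated start are printed 5′ to 3′ on the plus strand, with each match in capitals, for MT2A (chr16:56608334-56608583), MT1H (chr16:56669564-56669813) and MT1X (chr16:56682220-56682469).
MT2A: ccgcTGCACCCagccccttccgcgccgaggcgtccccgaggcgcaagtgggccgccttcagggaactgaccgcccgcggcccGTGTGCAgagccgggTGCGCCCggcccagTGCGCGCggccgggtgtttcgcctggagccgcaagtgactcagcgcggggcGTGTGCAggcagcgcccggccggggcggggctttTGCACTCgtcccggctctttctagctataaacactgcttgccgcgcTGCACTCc
MT1H: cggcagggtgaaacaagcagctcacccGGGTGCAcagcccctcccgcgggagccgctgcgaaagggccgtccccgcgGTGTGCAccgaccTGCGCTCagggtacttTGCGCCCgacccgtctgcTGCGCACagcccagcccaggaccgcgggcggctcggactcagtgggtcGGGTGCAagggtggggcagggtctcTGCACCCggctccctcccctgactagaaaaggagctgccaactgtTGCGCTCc
MT1X: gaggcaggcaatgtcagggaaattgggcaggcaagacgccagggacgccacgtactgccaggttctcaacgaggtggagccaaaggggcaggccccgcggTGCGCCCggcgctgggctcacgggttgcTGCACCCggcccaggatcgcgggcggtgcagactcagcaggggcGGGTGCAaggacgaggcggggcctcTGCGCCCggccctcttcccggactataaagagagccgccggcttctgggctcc
The MT2A sequence held 7 matches, 5 read forward and 2 on the opposite strand. At least as many were present in 0.0313% of the 35116 promoters in the table. MT1H had 8 matches, a number reached by 0.0171% of promoters, and MT1X had 4, reached by 0.37%. MT1B, a gene of the cluster outside the list, had 3, reached by 1.58%. At least 1 match was present in 24.8% of all promoters. The SLC30A1 promoter held 1 match and the MTF1 promoter held 0. A match is a run of letters and does not show that the factor bound there. The elements were already known upstream of MT1 and MT2A genes, so these shares are a description.

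What a probe set can tell apart limits every value below. Names ending in _x_at mark probe sets whose probes can bind several related transcripts, and all 9 MT1 and MT2A probe sets with a clear signal are of this kind. The 2 probe sets without that mark for MT1 genes, 210472_at for MT1G and 217546_at for MT1M, lay near or below the unspiked bacterial controls. The 9 signals are therefore readings of the MT1 and MT2A group, and how far each one reflects only the gene in its name was not tested. The probe set 204326_x_at is annotated to MT1X, while the transcript listed for it belongs to MT1L, a pseudogene of the cluster, in the RefSeq table. Values are log2 signals as the authors deposited them, so 1 unit is a doubling, and levels are not compared between probe sets.

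At 16 h the 9 MT1 and MT2A signals were lower than in vehicle by 1.46 to 2.23 on the log2 scale, with a median change of -1.61. On all 9 probe sets, each of the 3 arrays at 16 h lay below each of the 3 vehicle arrays, an arrangement shown by 21.1% of the 27306 probe sets tested. All 9 passed the threshold of the fit across those probe sets (adjusted p below 0.05), in which 16.7% of probe sets passed in the lower direction. Nothing is read from these counts, since the list was chosen with this comparison known. The median change of all tested probe sets was 0.04, and 2.03% of them were lower by more than 1 unit. In bulk RNA, fewer cells expressing a gene and less of its RNA per cell cannot be told apart.

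MT2A is the most widely expressed human metallothionein and responds to metals and glucocorticoids. Its probe set 212185_x_at read 9.18, 9.13 and 8.92 on the 3 arrays at 16 h, against 10.65, 10.56 and 10.53 on the vehicle arrays. The arrays read 10.55, 10.46 and 10.61 at 4 h and 10.49, 10.45 and 10.56 at 6 h, overlapping vehicle at both times. The 16 h arrays lay more than 1 unit below every other array. The change at 16 h was -1.50 ± 0.08 (SE, n = 3 per group), a 2.83-fold lower signal.

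MT1G showed the widest gap among the members. MT1G probe set 204745_x_at read 6.69, 6.54 and 6.14 at 16 h, against 8.71, 8.76 and 8.58 in vehicle. At 4 h it read 8.56, 8.57 and 8.73, and at 6 h 8.58, 8.68 and 8.55. The third 16 h array was the lowest of the 12, and no 16 h array came near the others. The change was -2.23 ± 0.12 (SE, n = 3 per group), 4.68-fold lower, and ranked 26 among the decreases of the 27306 probe sets. The other MT1G probe set, 210472_at, stayed between 1.67 and 2.27 on the 12 arrays, where the highest unspiked control of an array was 1.87 to 2.28, and it was below the signal filter.

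MT1X, an MT1 isoform that metals also induce, was read by a pair of probe sets. MT1X probe set 208581_x_at read 8.26, 8.0 and 8.13 at 16 h, against 10.02, 10.22 and 9.99 in vehicle, a change of -1.95 ± 0.09 (SE, n = 3 per group). The 204326_x_at signals were 8.55, 8.35 and 8.41 at 16 h, against 10.12, 10.07 and 10.04 in vehicle, a change of -1.64 ± 0.07. Both probe sets separated the 16 h arrays from vehicle completely, but not by the same amount. The difference 204326_x_at minus 208581_x_at was 0.31 ± 0.03 at 16 h and -0.00 ± 0.13 in vehicle (SD, n = 3 each), with no overlap between the arrays of the groups.

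MT1E and MT1F were each read by 2 probe sets as well. For MT1E, 212859_x_at read 9.13, 9.27 and 8.94 at 16 h, against 10.68, 10.62 and 10.58 in vehicle, a change of -1.51 ± 0.08 (SE, n = 3 per group). The second MT1E probe set, 216336_x_at, read 6.53, 6.92 and 6.68 at 16 h, against 8.27, 8.39 and 8.14 in vehicle, a change of -1.56 ± 0.10. The MT1E probe sets thus moved by nearly equal amounts. For MT1F, 217165_x_at read 7.13, 7.24 and 7.04 at 16 h, against 9.08, 9.07 and 9.01 in vehicle, a change of -1.92 ± 0.09. MT1F probe set 213629_x_at read 6.57, 5.77 and 5.80 at 16 h, against 7.38, 7.65 and 7.48 in vehicle, a change of -1.46 ± 0.18. Its first 16 h array stood above the other 2, which gave this probe set the widest spread of the 9.

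MT1H probe set 206461_x_at read 7.85, 7.91 and 7.96 at 16 h, against 9.56, 9.59 and 9.43 in vehicle. The 16 h arrays of MT1H lay close together and well below vehicle. The change was -1.61 ± 0.07 (SE, n = 3 per group), 3.06-fold lower. For MT1H the arrays read 9.46, 9.40 and 9.56 at 4 h and 9.48, 9.49 and 9.43 at 6 h.

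**Figure D1:**
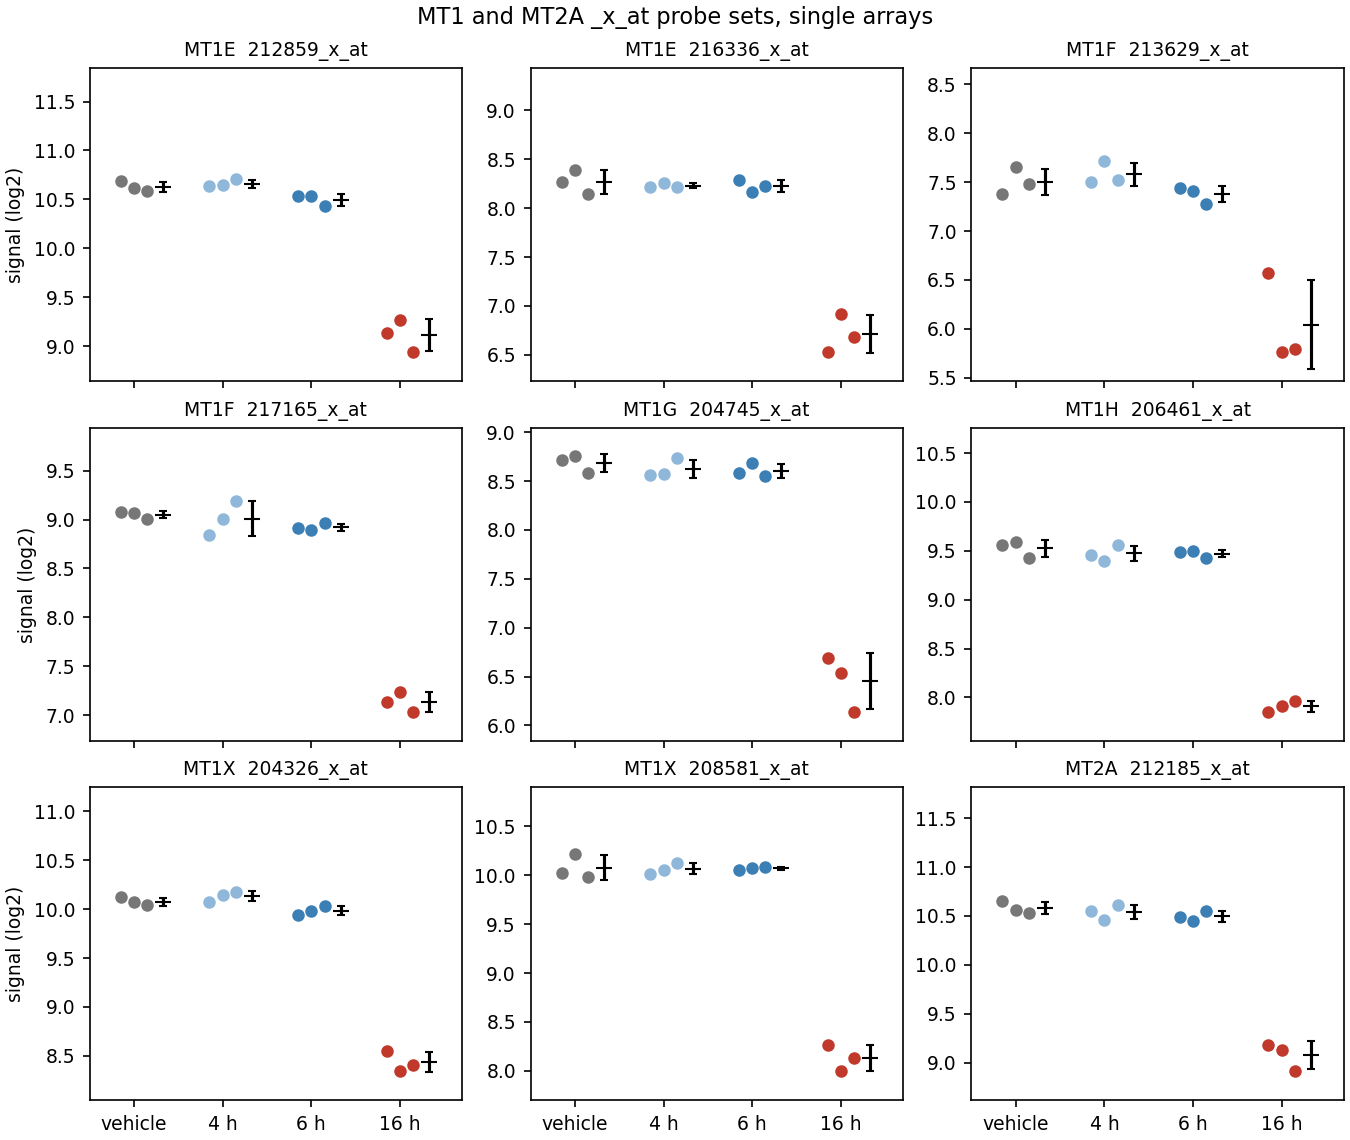
Deposited log2 signal of the 9 MT1 and MT2A probe sets on each array (points), with the mean and SD of 3 arrays beside them, for vehicle, 4 h, 6 h and 16 h from left to right. The axis of every panel spans the same range of log2 units, and on each probe set the 3 arrays at 16 h lie below the other 9.

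The arrays at 4 h and 6 h bear on whether the signals had already moved at those times. At 4 h no member passed the threshold of limma's test with Benjamini-Hochberg adjustment, where 0.293% of probe sets did. The 9 MT1 and MT2A changes at 4 h were -0.06 to 0.08, their 95% intervals reached from -0.33 to 0.46, and their lowest adjusted p was 0.841. Of the 13 members tested, 1 had an unadjusted p below 0.05, MTF1 probe set 205323_s_at. At 6 h again no member passed, where 0.681% of probe sets did, and 0 of the 13 had an unadjusted p below 0.05. The lowest adjusted p among the 9 MT1 and MT2A probe sets at 6 h was 0.649.

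The 9 changes at 6 h were all below 0, at -0.13 to -0.01, with intervals that reached from -0.51 to 0.26. On 3 of the 9, MT1E 212859_x_at, MT1F 217165_x_at and MT1X 204326_x_at, the 6 h arrays lay entirely below vehicle. Over all probe sets 10% did so at 6 h. The 212859_x_at signals of MT1E were 10.53, 10.53 and 10.43 at 6 h, against 10.68, 10.62 and 10.58 in vehicle. These 9 readings share arrays and transcripts and are not 9 independent observations, and the comparisons at 4 h, 6 h and 16 h share the vehicle arrays.

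Set against 6 h rather than vehicle, the 9 signals at 16 h were lower by 1.33 to 2.15 on the log2 scale, without overlap on any of them. All 9 passed the threshold, where 14.7% of probe sets did in the lower direction and 20.1% separated without overlap in that direction. As with vehicle, nothing is read from these counts, since the 16 h signals had a part in the choice of the list. The MT1G change was -2.15, the MT1X changes were -1.94 and -1.55, and the MT2A change was -1.42. The 6 h and 16 h arrays both carry a time label and the compound, and the difference in the title code applies to this pair too.

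**Figure D2:**
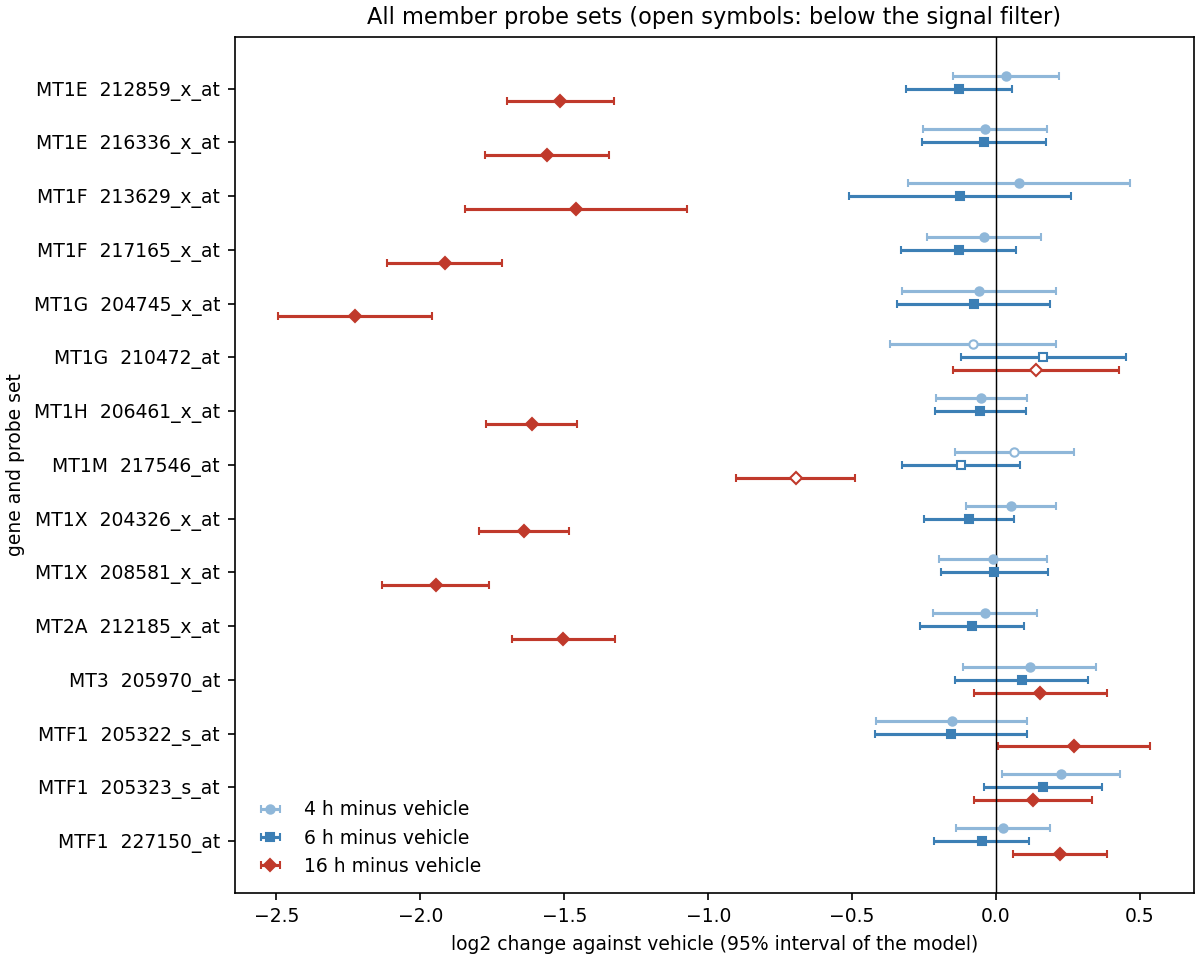
Log2 change against vehicle of all 15 member probe sets at 4 h, 6 h and 16 h, with the 95% interval of the model (open symbols, below the signal filter). The 4 h and 6 h changes sit around 0, the 9 MT1 and MT2A probe sets lie between -2.23 and -1.46 at 16 h, and MT3 and MTF1 stay to the right of 0 at 16 h.

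The 9 signals ran together across arrays but did not move by one common amount. Over the 12 arrays, Pearson's r between them was 0.914 to 0.996 in 36 pairs, with a median of 0.989. After each group's mean was removed, r was -0.59 to 0.78 with a median of 0.26. These correlations describe probe sets on shared arrays that may share transcripts. Within arrays, the difference between 2 of the 9 separated 16 h from vehicle without overlap in 19 of the 36 pairs. The share among other pairs of probe sets was not computed, and the 36 pairs reuse 9 probe sets chosen with their 16 h signals known. Nothing is read from this count. MT1G minus MT2A was -2.62 ± 0.14 at 16 h and -1.90 ± 0.08 in vehicle (SD, n = 3 each), so the MT1G signal moved further by 0.72. The MT1F probe set 213629_x_at and MT1G moved apart most, by 0.77. Of the 16 h arrays, replicate 3 had 1 of the 9 signals above its group mean, with an average deviation of -0.11, and replicate 1 had an average deviation of 0.10.

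MT3 and MT1M, which adjoin the other genes in the cluster, gave little signal. MT3 probe set 205970_at read 2.66, 2.22 and 2.33 at 16 h, against 2.24, 2.30 and 2.21 in vehicle, a change of 0.15 ± 0.11 (SE, n = 3 per group) with an interval of -0.08 to 0.39. Its 16 h arrays overlapped vehicle. MT3 lay just inside the filter for testing, a mean of 2.11 over the arrays, with a mean of 2.34, and MT1G probe set 210472_at lay just outside it with 1.92. The only MT1M probe set, 217546_at, read 0.63, 0.74 and 0.75 at 16 h, against 1.42, 1.44 and 1.35 in vehicle. None of the 12 MT1M values exceeded the highest unspiked control of its array, so no change is read from them. The median of the unspiked controls also differed, at 1.16 to 1.20 on 16 h arrays and 1.29 to 1.32 on vehicle arrays.

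Metallothionein genes outside the list had 2 probe sets with a single symbol. MT1HL1, an MT1H-like gene on chromosome 1, read 9.01, 8.99 and 8.95 at 16 h, against 10.27, 10.31 and 10.28 in vehicle. The change was -1.30 ± 0.06 on the log2 scale (SE, n = 3 per group). Its arrays did not overlap, an arrangement shown in this direction by 21.1% of the probe sets tested. Metallothioneins were known to be lower at 16 h from earlier results, so this too is a description with no test. The MT1HL1 probe set is also an _x_at set, so the MT1 transcripts of chromosome 16 may contribute to it. MT4, a metallothionein of stratified epithelium at the end of the cluster, was below the highest unspiked control on all 12 arrays.

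The MTF1 signals were slightly higher than vehicle at 16 h or overlapped it. The brightest probe set, 227150_at, read 6.15, 6.27 and 6.12 at 16 h, against 5.97, 5.91 and 5.99 in vehicle, without overlap, a change of 0.22 ± 0.07 (SE, n = 3 per group). This was the 1 of the 3 MTF1 probe sets past the threshold at 16 h, where 23% of all probe sets passed in the higher direction. MTF1 belongs to the list chosen with the 16 h signals known, so nothing is read from this call. The call was lost in 8 of 21 other settings, among them quantile normalisation, median centring and fits without vehicle replicate 1, vehicle replicate 2 or 16 h replicate 2. The 205322_s_at signals of MTF1 were 3.40, 3.55 and 3.64 at 16 h, against 3.42, 2.98 and 3.37 in vehicle, with overlap and a change of 0.27 ± 0.12. For MTF1 probe set 205323_s_at the change at 16 h was 0.13 ± 0.09.

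At 4 h, MTF1 probe set 205323_s_at read 4.50, 4.65 and 4.80, against 4.50, 4.44 and 4.34 in vehicle, a change of 0.23 ± 0.09 (adjusted p = 0.379, limma). Against 6 h, 2 of the 3 MTF1 probe sets passed in the higher direction at 16 h, where 23.7% of all probe sets did. They were 205322_s_at, with a change of 0.43, and 227150_at, with 0.27, while 205323_s_at had a change of -0.04. Both calls were lost under quantile normalisation. The first was also lost without 6 h replicate 3 or 16 h replicate 3, and the second without 16 h replicate 2. As with vehicle, nothing is read from these 16 h calls.

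The genes beside the cluster on chromosome 16 were examined because they share its location. This list and the metal and glucocorticoid lists below were chosen with earlier results of these arrays known. Their counts and p-values do not allow for that choice. Of 9 with a probe set on the array, 5 passed the filter, and 2 of the 5 rose and 1 fell at 16 h, where 24.7% of the 12635 genes tested rose and 15.9% fell by their brightest probe set. HERPUD1, a protein of the endoplasmic reticulum degradation pathway, read 10.61, 10.58 and 10.70 at 16 h, against 9.81, 9.81 and 9.92 in vehicle, and rose by 0.78 ± 0.07 (adjusted p = 9.67e-06, limma). OGFOD1, a hydroxylase of a ribosomal protein, rose by 0.37 ± 0.08 (adjusted p = 0.00417), although another of its probe sets, 221090_s_at, changed by -0.05 ± 0.10. NUDT21, a subunit of the cleavage factor that selects polyadenylation sites, fell by 0.30 ± 0.07 (adjusted p = 0.0076), and its probe set 202697_at changed by 0.09 ± 0.09. NUP93, a nuclear pore protein next to MT1X, had a change of -0.30 ± 0.15 (adjusted p = 0.132), and BBS2 of 0.11 ± 0.09 (adjusted p = 0.372). Under quantile normalisation NUP93 passed as well. By limma 0 of the 5 passed at 4 h (lowest adjusted p = 0.548) and 0 at 6 h (lowest adjusted p = 0.118), where 0.34% of all genes passed at 4 h and 0.135% at 6 h. At an unadjusted p below 0.05, 0 of the 5 passed at 4 h and 1 at 6 h. That gene was HERPUD1, lower at 6 h with a change of -0.27. It passed the adjusted threshold at 6 h in 1 of 21 other settings, the trended and robust prior.

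**Figure D3:**
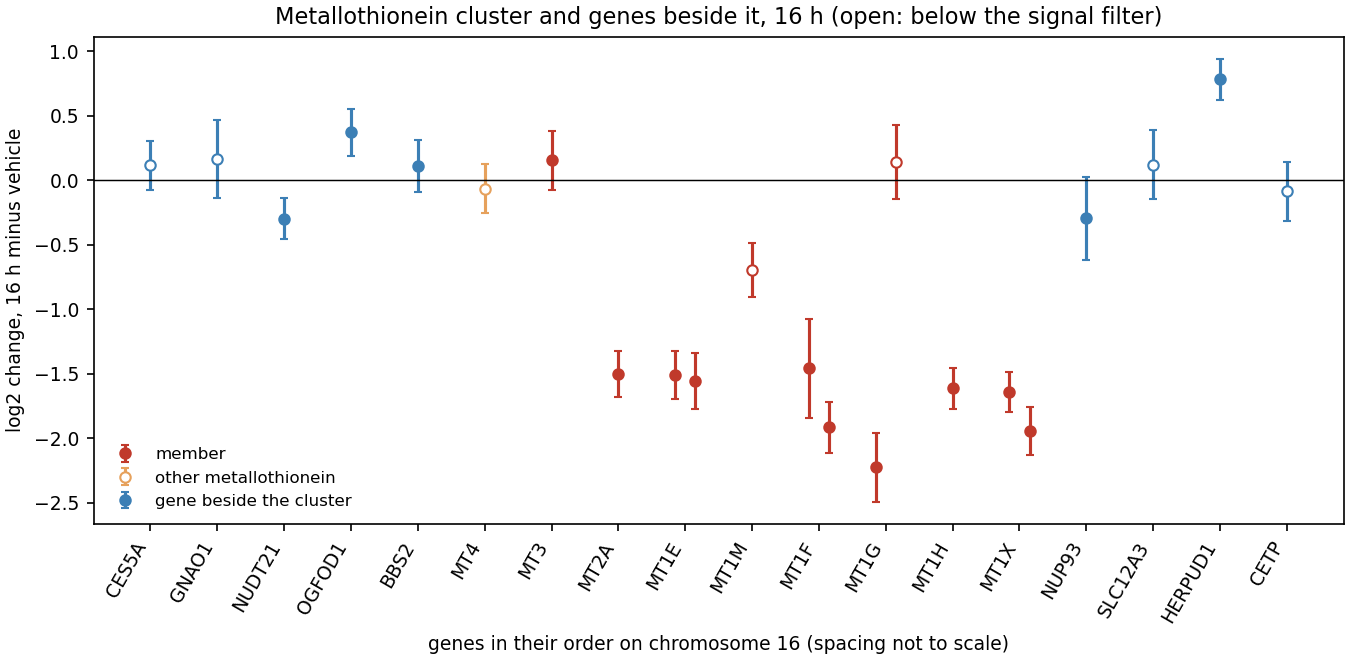
Log2 change, 16 h minus vehicle, of the metallothionein genes and the genes beside them in their order on chromosome 16, with 95% intervals (open symbols, below the signal filter; spacing not to scale). The 9 MT1 and MT2A probe sets lie at -1.46 or lower, and the 5 tested genes beside the cluster between -0.30 and 0.78.

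Zinc transporters set how much zinc reaches MTF1 and the metallothioneins. As with the genes beside the cluster, the p-values of these lists do not allow for a choice made with earlier results known. The SLC30 family moves zinc out of the cytosol. Of its 8 listed genes 6 were tested, and at 16 h 2 of them rose and 0 fell, beside 24.7% higher and 15.9% lower over all genes. The list's median change was 0.20, and that of all genes 0.05. SLC30A1, itself an MTF1 target, read 7.77, 7.95 and 8.04 at 16 h, against 6.91, 6.93 and 6.90 in vehicle. Its 16 h arrays were all higher than vehicle, and it rose by 1.01 ± 0.10 (adjusted p = 1.21e-05, limma), the opposite direction to the MT1 and MT2A signals. The same probe set changed by -0.26 at 4 h (adjusted p = 0.315) and -0.24 at 6 h (adjusted p = 0.34), neither past the threshold. A second SLC30A1 probe set, 228181_at, read 6.98, 7.13 and 7.43 at 16 h, against 4.25, 4.76 and 4.51 in vehicle, and rose by 2.67 ± 0.20 (adjusted p = 1.89e-06). SLC30A7, a transporter of the Golgi, rose by 0.57 ± 0.09 (adjusted p = 0.000444).

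The SLC39 family brings zinc into the cytosol. Of 11 genes tested, 1 rose and 2 fell at 16 h, beside 24.7% higher and 15.9% lower over all genes, with a median of -0.12. SLC39A11 fell by 0.48 ± 0.10 (adjusted p = 0.00243, limma), and SLC39A9 fell by 0.29 ± 0.07 (adjusted p = 0.00785). SLC39A14, which carries zinc and iron, rose by 0.20 ± 0.07 (adjusted p = 0.0295). The SLC39A14 call was lost under median centring, without a filter, in the fit of the 2 groups alone, and without any one of the vehicle arrays, 16 h replicate 2 or 16 h replicate 3. Under quantile normalisation the list had 1 gene higher and 4 lower.

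Metallothioneins also bind copper, and 9 genes of copper handling were tested. At 16 h 5 of the 9 rose and 1 fell, beside 24.7% higher and 15.9% lower over all genes, with a median of 0.21. SLC31A1, the main copper importer, read 7.27, 7.61 and 7.52 at 16 h, against 6.31, 5.80 and 6.51 in vehicle, and rose by 1.26 ± 0.15 (adjusted p = 6.47e-05, limma). ATP7A, which pumps copper out of the cell, rose by 0.98 ± 0.21 (adjusted p = 0.00272). COX17, a copper chaperone of mitochondria, rose by 0.48 ± 0.10 (adjusted p = 0.00221). COX17 read only 2.29, 2.37 and 2.14 in vehicle, where the highest unspiked controls were 2.02, 2.28 and 2.11. Little is therefore read from this 1 of the 5 rises. SLC31A2 fell by 0.48 ± 0.12 (adjusted p = 0.00712). Without 16 h replicate 2 the rises numbered 3.

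Other genes reported under MTF1 control formed a short list. Of 7 tested, 2 rose and 0 fell at 16 h, beside 24.7% higher and 15.9% lower over all genes, with a median of 0.07. NDRG1, known from stress and hypoxia responses, read 6.78, 6.64 and 6.87 at 16 h, against 5.34, 5.33 and 5.36 in vehicle, and rose by 1.42 ± 0.13 (adjusted p = 7.42e-06, limma). GCLC, the rate-limiting enzyme of glutathione synthesis, rose by 0.98 ± 0.07 (adjusted p = 1.22e-06), and another of its probe sets, 202922_at, by 1.01 ± 0.08. The other 5 were SELENOW, SELENOH, CSRP1, PGF and SLC40A1, with changes of -0.04 to 0.22. At 4 h and 6 h, 0 of the 33 genes of these 4 metal lists passed in limma, with a lowest adjusted p of 0.315 at 4 h and 0.34 at 6 h. At an unadjusted p below 0.05, 4 passed at 4 h and 1 at 6 h.

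**Figure D4:**
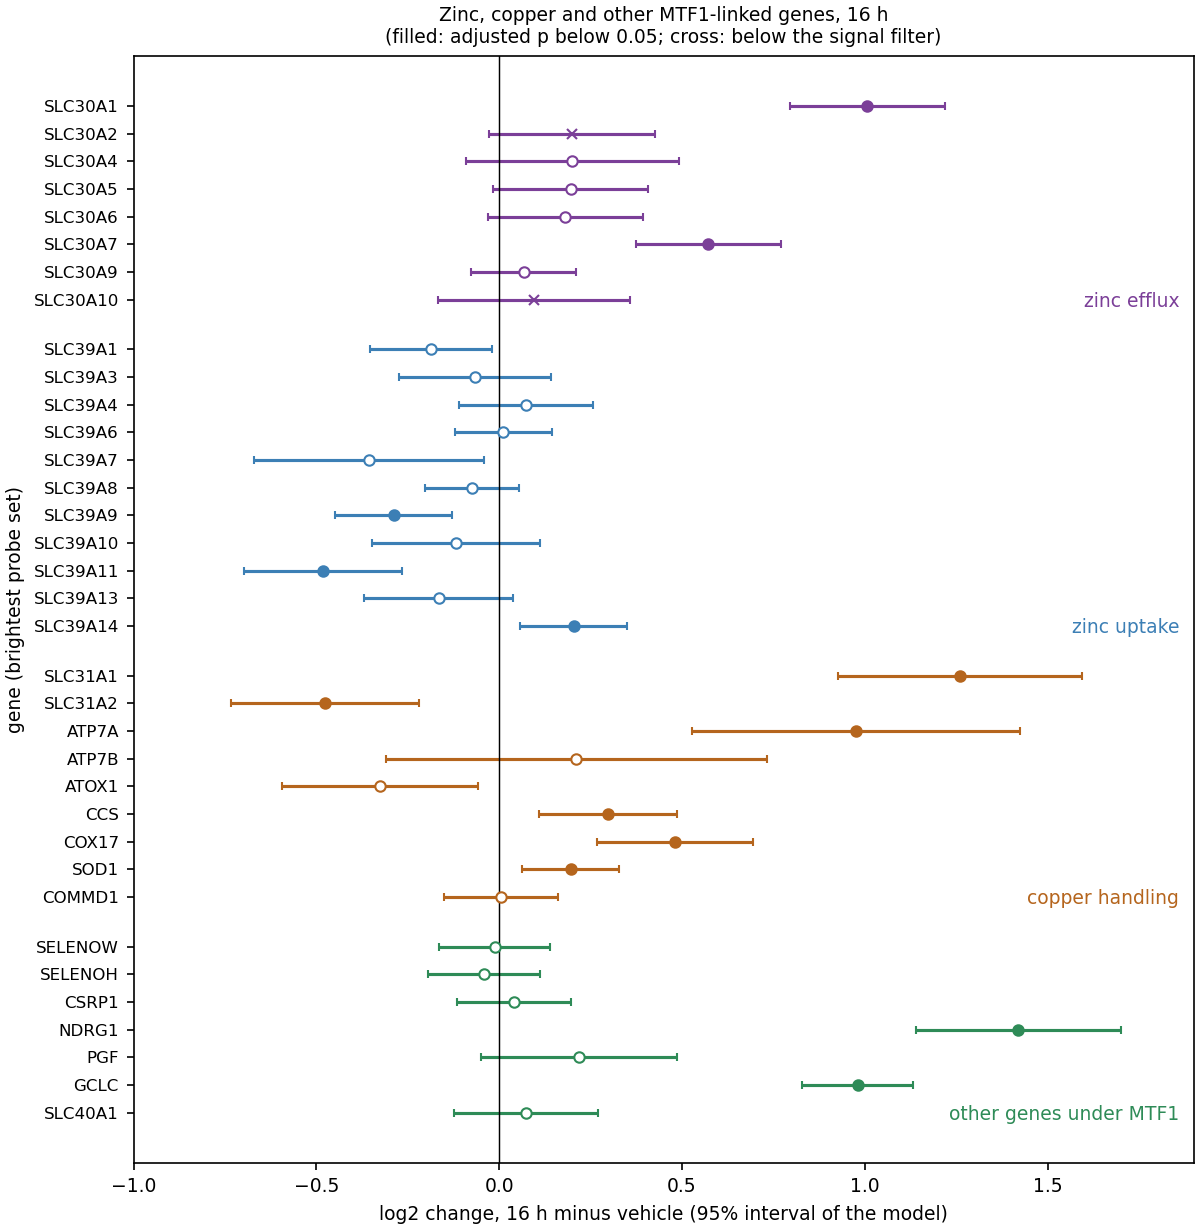
Log2 change, 16 h minus vehicle, with 95% intervals, of zinc efflux, zinc uptake, copper handling and other MTF1-linked genes by brightest probe set (filled, adjusted p below 0.05; crosses, below the signal filter). SLC30A1 at 1.01, SLC31A1 at 1.26 and NDRG1 at 1.42 are the rightmost points of their groups.

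Glucocorticoid-responsive genes were set beside MT2A because glucocorticoids induce it. Of 9 tested, 6 rose and 3 fell at 16 h, beside 24.7% higher and 15.9% lower over all genes, with a median of 0.83. NR3C1, the glucocorticoid receptor, rose by 1.06 ± 0.17 (adjusted p = 0.000527, limma), ERRFI1, a feedback inhibitor of the EGF receptor, by 1.83 ± 0.10 (adjusted p = 1.19e-07), and the kinase SGK1 by 1.56 ± 0.18 (adjusted p = 4.66e-05). The NR3C1 value comes from 201865_x_at alone, so related transcripts may contribute, and other NR3C1 probe sets are not described here. ZBTB16, a zinc finger repressor, fell by 1.34 ± 0.08 (adjusted p = 4.59e-07). FKBP5, which is also an androgen target, fell by 0.90 ± 0.06 (adjusted p = 1.03e-06). At 4 h 1 of the 9 passed, where 0.269% of genes rose. It was ERRFI1, which read 9.43, 9.37 and 9.48 at 4 h, against 8.78, 8.76 and 8.72 in vehicle (change 0.67 ± 0.10, adjusted p = 0.0149), a call lost without vehicle replicate 1, vehicle replicate 3 or any one 4 h array. ERRFI1 also passed at 6 h, where 0.0554% of genes rose, with a change of 0.49 (adjusted p = 0.0436), a call that 14 of the 21 other settings lost, leave-one-out fits among them.

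The genes whose course was most like the metallothioneins were ranked by Pearson's r with a mean profile over the 12 arrays. That profile averaged the brightest probe sets of MT1E, MT1F, MT1G, MT1H, MT1M, MT1X and MT2A. MT1M entered it although its signal lay below the highest unspiked control on every array. The genes with the highest r were STEAP2 (0.997), FASN (0.995), MSH6 (0.992), PAPSS1 (0.991) and CDK14 (0.991). FASN, the fatty acid synthase, averaged 7.71 at 16 h and 9.44 in vehicle, and STEAP2, a metal reductase, 8.57 at 16 h and 9.62 in vehicle. The most opposite were SEPHS2 (-0.994), FTH1P5 (-0.994), KHNYN (-0.994), TNFRSF10B (-0.994) and NFE2L1 (-0.993). FTH1P5 and NFE2L1 were read by _x_at probe sets, so related transcripts may contribute to their signals. SEPHS2, an enzyme of selenocysteine synthesis, averaged 9.85 at 16 h and 8.84 in vehicle. Because the 16 h arrays stand apart from the rest, such values are common: r exceeded 0.9 for 5.95% of 12626 genes and was below -0.9 for 8.47%. These correlations are a description and share the arrays' grouping.

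Several array-wide measures differed between 16 h and vehicle, and their part in the metallothionein values was not tested. For ACTB, the control probe set at the 3' end minus that at the 5' end gave a log2 difference of 4.09 ± 0.09 at 16 h and 2.80 ± 0.07 in vehicle (SD, n = 3 each; exact two-sided permutation p = 0.1, the smallest that 3 against 3 arrays allow). The same difference for GAPDH was -0.43 ± 0.04 at 16 h and -0.46 ± 0.02 in vehicle (exact permutation p = 0.3). The 18S ribosomal RNA control read 11.06 ± 0.10 at 16 h and 9.62 ± 0.29 in vehicle (exact permutation p = 0.1). It was lower than vehicle at the early times, at 8.98 ± 0.14 at 4 h and 8.64 ± 0.19 at 6 h (exact permutation p = 0.1 each). Of the prostate epithelial markers, 6 of 6 measured exceeded the unspiked controls on all 12 arrays, while 0 of 5 leukocyte and 1 of 6 endothelial markers did. Of 6 fibroblast markers 3 did so, with COL1A2 and PDGFRB below the controls on every array, and the summed log2 signal of the 6 was 19.1 to 19.7 at 16 h and 16.1 to 17.8 in vehicle. The 4 fibroblast markers tested moved both ways at 16 h, with COL1A1 at 2.05 ± 0.20 (adjusted p = 1.42e-05, limma) and LUM at 1.25 ± 0.19 (adjusted p = 0.00027), against DCN at -0.58 ± 0.14 (adjusted p = 0.0059) and COL3A1 at -0.37 ± 0.09 (adjusted p = 0.00903).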

How the data were processed

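The values of the 12 arrays were deposited by the authors as log2 signals of 54675 probe sets. Per the submitters' processing notes they were made with GCRMA (no version given), which corrects background by probe sequence, normalises between arrays and summarises probes. Other steps and a genome build are not given in the sources used here. No scanner files were used, so the number of arrays limits the precision. Arrays normalised in this way have nearly equal distributions, which would hide a shift common to most transcripts.

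Gene names came from the platform annotation, updated through RefSeq, and 41091 probe sets named 1 gene, 1801 several and 11777 none. Members and gene lists were chosen with earlier results of these data known. All 12 arrays entered 1 linear model per probe set with 4 groups (limma 3.58.1, R 4.3.3, lmFit and eBayes, 8 residual and 3.75 prior degrees of freedom). Probe sets with a mean of at least 2.11, the median over all of them, were tested after 62 control probe sets were set aside, and p-values were adjusted by Benjamini-Hochberg over 27306 probe sets, with a threshold of 0.05. In lists a gene stands for its brightest probe set. The text names every member probe set, up to 4 passing genes of each list by size of change, with genes of interest beside them (FKBP5, NUP93 and BBS2) chosen after their values were seen, and the 5 highest and 5 lowest correlations. The fit was tested on simulated data. Alternatives were another normalisation, filter, probe set choice, prior, weighting, subset of groups, replicate block, and each array left out.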

Additional observations from a re-analysis of the deposited data

Results flagged for a closer look

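The change at 16 h differed from the change at 6 h on 11 member probe sets, by the test of 16 h against 6 h in limma. The vehicle mean cancels in this difference, and the list was chosen with the lower 16 h signals known, so the count and the values are a description. Over all probe sets tested, 14.7% passed in the lower direction and 23.7% in the higher direction. The differences were -2.15 for MT1G 204745_x_at, -1.94 for MT1X 208581_x_at, -1.79 for MT1F 217165_x_at and -1.56 for MT1H 206461_x_at. They were -1.55 for MT1X 204326_x_at, -1.52 for MT1E 216336_x_at, -1.42 for MT2A 212185_x_at, -1.38 for MT1E 212859_x_at and -1.33 for MT1F 213629_x_at. For MTF1 they were 0.43 on 205322_s_at and 0.27 on 227150_at. Each group held 3 arrays, too few to look for single outlying arrays.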

How the results depend on the processing

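Over 21 other settings each, the change at 16 h was -2.34 to -2.07 for MT1G and -1.56 to -1.42 for MT2A. The widest range of the MT1 and MT2A probe sets was -1.72 to -1.32, for MT1F 213629_x_at over 20 settings. These ranges and the member calls below are descriptions, since the members were chosen with their 16 h signals known. Of 448 member changes over settings other than leave-one-out, 443 differed by less than the spread between replicates (1 SD), and the 5 that moved were all MTF1 under quantile normalisation. None of 624 leave-one-out values moved by more than that, and 0 called values changed sign in either kind; the MTF1 calls that were lost are given with MTF1 above. Member calls against vehicle at 16 h numbered 9 to 10 with 1 array left out, and against 6 h 10 to 11. With 1 value a gene, there were 7 calls against 6 h by the brightest probe set and 7 by the mean, fewer because fewer units were tested.

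The number of probe sets called in the whole table was unsteady at the early times. At 4 h it was 80, and 131 with a 75th percentile filter, 257 with a trended and robust prior, 126 with array weights and 23 from the 2 groups alone. At 6 h it was 186, and 56 under quantile normalisation, 286 after median centring, 4 by brightest probe set, 79 by averaging each gene's probe sets, 606 with the trended and robust prior, 303 with array weights and 1 from the 2 groups alone. Leaving out 1 array gave 13 to 405 at 4 h and 3 to 680 at 6 h, both highest without vehicle replicate 2 and lowest without 4 h replicate 3 at 4 h and without vehicle replicate 1 or 3 at 6 h. At 16 h the count was 10853, with 5405 by brightest probe set, 5022 by the mean and 9001 to 10906 with 1 array left out. Against 6 h it was 10486, with 5390, 5027 and 8422 to 10625. Under quantile normalisation the share of calls that were lower was 31.2% at 4 h, 75% at 6 h, 50.4% at 16 h and 52.4% for 16 h against 6 h, beside 42.5%, 93%, 42.1% and 38.2% in the deposited scaling.

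Replicate numbers were not taken to pair the arrays, since the labels give no shared origin and not every same-numbered pair had a correlation of deviations above 0.1. The 6 pairs of replicate 1 lay at 0.123 to 0.216. Over all numbers 7 of 18 same-numbered pairs exceeded 0.1 (median 0.071), against 2 of 36 others (median -0.065), and 8 of 12 arrays correlated best with their own number, a hint from the data and not from the design. With the replicate block the table had 158 calls at 4 h, 399 at 6 h, 11453 at 16 h and 11094 against 6 h, and the number of members called was 0 at 4 h, 0 at 6 h, 10 at 16 h and 11 against 6 h. In alternatives chosen after seeing the data, the ACTB difference at 16 h was 1.40 under quantile normalisation and 1.24 to 1.33 with 1 array left out. The alternative that treats dim signals as bounds was not run, since no bound is reported. Signals near the unspiked controls, as for MT1M, MT3, MT1G 210472_at and COX17, limit what can be said of those genes.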
